A study of Mus musculus with 2 samples.

Results

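The 10 genes described here mark the endothelium of the liver: Stab1, Stab2, Lyve1, Clec4g, Fcgr2b, Kdr, Tek, Ptprb, Pecam1 and Oit3. They were chosen by symbol, and all 10 were listed among the 24054 genes of the deposited expression table. Each averaged 1 or more TPM, a level per length of transcript that is scaled to the library's size. The tissue was liver of C57BL/6 male mice aged 8 to 12 weeks, either wild type (WT) or with a whole body knockout of Pgrmc1 (KO, Pgrmc1 -/Y), made by crossing mice with a floxed allele to Sox2-Cre mice. Each mouse gave the same mass of RNA, 2.5 μg, to a pool that became the 1 library of its genotype, so the spread between mice was not measured, no difference has a replicate check and no p-value is given. The embryonic stem cells of the floxed line were C57BL/6N, and the sources used here do not say whether the WT mice were littermates.

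Liver sinusoids are lined by a fenestrated endothelium that lacks a continuous basement membrane and clears waste macromolecules from blood through scavenger and lectin receptors. Receptor tyrosine kinases for VEGF and angiopoietin, and the junction proteins that endothelium of all vessels carries, keep these vessels open and intact. The study asked whether loss of Pgrmc1, a heme-binding membrane protein, changes liver transcripts, with cytochromes P450 as its main interest. The endothelial genes are a measure of another cell type in the same pools.

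Pgrmc1 itself was at 0.68 TPM in the KO library and 949.49 TPM in the WT library, as the labels have it. The deposited TPM are labelled as normalised and summed to 1005325 in KO and 994702 in WT, so the totals were not equal. An estimated 22086688 reads in KO and 29710410 in WT lay on the genes of the authors' table of means. Among the 11623 genes averaging 1 TPM or more, the median of log2((KO TPM + 1)/(WT TPM + 1)) was -0.01 and the 5th and 95th percentiles were -0.27 and 0.27. Changes below are on this scale unless a ratio of means is named. A 95% counting interval is the Clopper-Pearson interval of the ratio of the authors' means, and it covers counting error only.

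All 10 endothelial markers had a lower TPM in the KO library than in the WT library, most by little, and Stab1 lay just above 0 once all changes were centred on their median (0.0050) or the authors' means were used (0.0016). The median change was -0.10 on the log2 scale, and their levels summed to 238.0 TPM in KO against 261.4 TPM in WT, a ratio of 0.910. By the deposited TPM alone, without the added 1 TPM, Lyve1 was 36.1% lower, Tek 18.5% lower and Pecam1 14.9% lower. Stab1 and Stab2 were 0.596% and 2.68% lower. Of all genes averaging 1 TPM or more, 53.8% lay below 0, so a value below 0 is common for any single gene. With 1 TPM added to each level, only Lyve1 passed a fold of 1.2 downward, 1 of 10 markers against 5.51% of all genes. On that scale 0 of 10 passed it upward, against 5.39%. Without the added 1 TPM, Tek passed it downward as well. The study's criterion for RNA joined a minimum size of change with a probability from its own model, which was not used here. By size alone, 0 of 10 were at a fold of 1.4 or more (1.21% of all genes). A decrease of the matching size, read as a fold of 0.6 or less, was met by 0 of 10 (0.301%), and read as 1.4-fold or more lower by 1 of 10, Lyve1 at a fold of 0.658 (1.02%). Among genes with a mean of 1 to 60 TPM, the range that holds the markers, these shares were 5.83% and 5.71% for 1.2-fold lower and higher, and 1.19%, 0.287% and 1.01% for a fold of 1.4 or more, of 0.6 or less and for 1.4-fold or more lower. In RNA of whole liver, fewer cells of a type and less RNA per cell cannot be told apart.

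**Figure D1:**
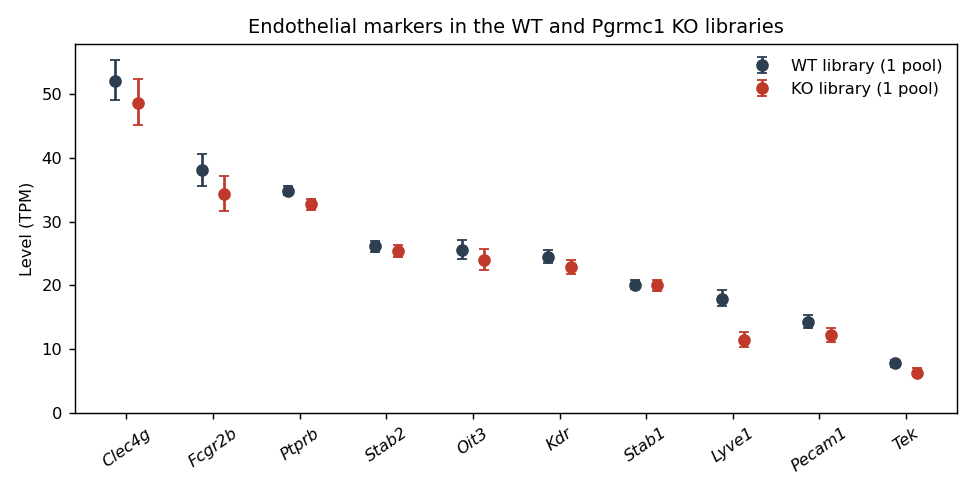
Level of each endothelial marker (vertical axis, TPM) in the WT library and the Pgrmc1 KO library, 1 pool each, ordered by the WT level. Points are deposited values and bars are exact Poisson intervals at 95% from estimated reads (counting error only). Lyve1, with 11.47 TPM in KO against 17.94 TPM in WT, shows the widest gap for its level, and the points of Stab1 nearly coincide.

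The order of levels was nearly the same in both libraries. In WT, Clec4g was highest at 52.15 TPM, followed by Fcgr2b, Ptprb, Stab2, Oit3, Kdr, Stab1, Lyve1 and Pecam1, with Tek lowest at 7.74 TPM. In KO, Clec4g was again highest at 48.67 TPM and Tek lowest at 6.31 TPM, but Pecam1 stood above Lyve1. The counting intervals of Fcgr2b and Ptprb overlapped in both libraries, as did those of Stab2 and Oit3 and of Oit3 and Kdr, so these neighbours are not ordered at this depth. Lyve1 and Pecam1 were apart in WT and overlapped in KO.

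Stab1 and Stab2 encode stabilin-1 and stabilin-2, large scavenger receptors that take up hyaluronan, modified lipoproteins and other ligands, and stabilin-1 is also made by some macrophages. Stab1 (chr14:31139013-31168641, minus strand, 69 exons in its longest transcript) measured 20 TPM in KO against 20.12 TPM in WT, a log2 change of -0.0082. Its counting interval ran from -0.08 to 0.08, on 2207 and 2977 estimated reads. Stab2 (chr10:86841198-87008025, minus strand, 69 exons) measured 25.41 TPM in KO against 26.11 TPM in WT, a change of -0.04 with an interval from -0.10 to 0.04. Both intervals hold 0, and with these read numbers a difference of the size seen for Lyve1 would have been outside both.

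Lyve1 encodes a hyaluronan receptor of sinusoidal and lymphatic endothelium, which some resident macrophages also carry. It (chr7:110850607-110863239, minus strand, 6 exons) measured 11.47 TPM in KO against 17.94 TPM in WT, a log2 change of -0.60. The ratio of means was -0.63 on the log2 scale with an interval from -0.81 to -0.46, on 393 and 824 estimated reads. Among the 4378 genes whose mean level was within a factor of 2 of that of Lyve1, itself included, 0.388% had a change as low or lower. The level of Lyve1 relative to Stab2, which no scaling between libraries can alter, was 0.687 in WT and 0.451 in KO. Lyve1 made up 6.86% of the summed TPM of the 10 markers in WT and 4.82% in KO, the largest shift of any of them. Without Lyve1 the ratio of the summed TPM was 0.930 and the median change -0.09.

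Clec4g encodes LSECtin, a C-type lectin that marks sinusoidal endothelium. It (chr8:3707064-3720651, minus strand) measured 48.67 TPM in KO against 52.15 TPM in WT, a change of -0.10 with an interval from -0.22 to 0.06. Fcgr2b encodes the inhibitory Fc gamma receptor, which in liver is found mostly on sinusoidal endothelium, where it clears immune complexes, and which B cells and macrophages also carry. It (chr1:170958617-170976547, minus strand) measured 34.31 TPM in KO against 38.05 TPM in WT, a change of -0.15 with an interval from -0.28 to 0.02. Both intervals hold 0. Of the 100-base windows of Fcgr2b transcripts, 1.4% also occur in another gene, among them Fcgr3, and the other 9 markers share 0% of theirs.

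Kdr encodes VEGFR2, the main signalling receptor for VEGF-A on endothelium. It (chr5:75932827-75978458, minus strand, 30 exons) measured 22.90 TPM in KO against 24.50 TPM in WT, a change of -0.09 with an interval from -0.18 to 0.0034. Tek encodes TIE2, the angiopoietin receptor that keeps vessels quiescent. It (chr4:94739289-94874976, plus strand, 23 exons) measured 6.31 TPM in KO against 7.74 TPM in WT, a change of -0.26 with an interval from -0.47 to -0.11, on 399 and 659 estimated reads. With the pseudocount of 1 TPM, Tek stood just short of the 1.2-fold limit, at a fold of 0.836. Its ratio of deposited TPM without the pseudocount was 0.815, which is past that limit. Tek also passed the limit with a pseudocount of 0.1 TPM, with the authors' means, and with TPM rescaled to the usual TPM total without the 50 most abundant genes. The count past 1.2-fold was then 2 of 10. Of the genes within a factor of 2 of its level, 5.76% had a change as low or lower. Ptprb encodes VE-PTP, the endothelial phosphatase that acts on TIE2 and on VE-cadherin junctions. It (chr10:116275523-116389535, plus strand, 34 exons) measured 32.75 TPM in KO against 34.89 TPM in WT, a change of -0.09 with an interval from -0.13 to -0.03, the narrowest of the 10 because it rests on 5425 and 7753 estimated reads. The level of Tek relative to Stab2 was 0.296 in WT and 0.248 in KO, while that of Ptprb was 1.34 and 1.29.

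Pecam1 encodes CD31, an adhesion molecule of endothelial junctions that platelets and leukocytes also carry. It (chr11:106654217-106750628, minus strand, 16 exons) measured 12.17 TPM in KO against 14.30 TPM in WT, a change of -0.22 with an interval from -0.37 to -0.06. Of the genes near its level, 7.18% had a change as low or lower. Oit3, a gene of liver sinusoidal endothelium whose protein is secreted, measured 24.01 TPM in KO against 25.60 TPM in WT (chr10:59422958-59441778, minus strand, 9 exons). Its change was -0.09, and its interval from -0.21 to 0.05 holds 0.

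**Figure D2:**
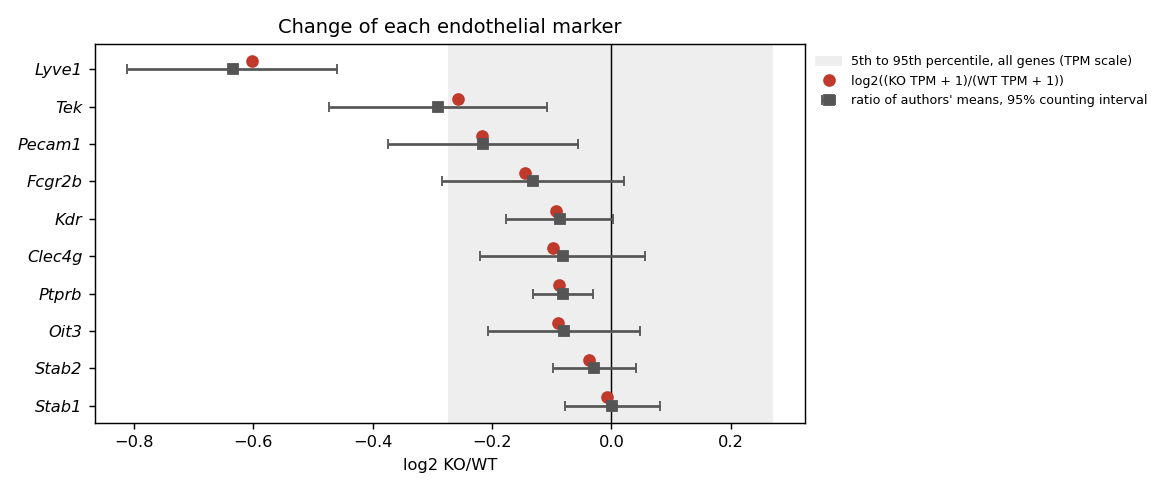
Change of each endothelial marker (horizontal axis, log2 KO/WT). Circles are log2((KO TPM + 1)/(WT TPM + 1)), squares are the ratio of the authors' means, and bars are its 95% counting interval. The grey band runs from -0.27 to 0.27, the 5th and 95th percentiles of all genes averaging 1 TPM or more. It is on the scale of the circles, and no such band was computed for the squares. The circle of Lyve1 lies outside the band, and those of Tek (-0.26) and Pecam1 lie inside it. The square of Tek is at -0.29. The intervals of these 3 genes lie below 0, and the intervals of Stab1 and Stab2 hold 0.

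The counting interval lay wholly below 0 for 4 of the 10 markers (Lyve1, Tek, Pecam1 and Ptprb), held 0 for 6 and lay above 0 for 0. Among genes averaging 1 TPM or more and listed in both tables, 13.4% had an interval below 0 and 11.7% one above 0. For a mean of 1 to 60 TPM these shares were 11.7% and 9.04%. With at least 1000 estimated reads as well, as all 10 markers have, 18.9% had an interval below 0 and 3.88% were 1.2-fold or more lower. An interval below 0 says only that reads were counted closely enough, and differences between mice would add to it.

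The libraries were made with a kit that keeps strand, and RSEM was run with an option for strand whose value is not given in the sources used here. Exons of Stab1 overlap those of Nt5dc2 on the opposite strand, and exons of Stab2, Clec4g and Fcgr2b overlap those of an annotated antisense gene. These 4 levels therefore depend on that setting.

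The table of RefSeq promoters used here holds 6 of the 10 markers and not Lyve1, Pecam1, Oit3 or Ptprb. The 250 bases before the start of Tek, the gene with the lowest change among these 6, and of Stab1 and Clec4g, the gene with the change nearest to 0 and the gene with the highest level, are shown because they span the range of change and level among these 6. Capitals mark AGGAAG, a sequence that ETS factors can bind, on either strand.
Tek promoter (chr4:94739039-94739288, GRCm38.p6, plus strand): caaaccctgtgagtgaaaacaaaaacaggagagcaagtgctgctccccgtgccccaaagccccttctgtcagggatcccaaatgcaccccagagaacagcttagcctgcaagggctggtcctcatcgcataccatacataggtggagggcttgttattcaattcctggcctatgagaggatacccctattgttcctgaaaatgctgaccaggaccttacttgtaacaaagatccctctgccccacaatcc
Stab1 promoter (chr14:31168642-31168891, GRCm38.p6, minus strand): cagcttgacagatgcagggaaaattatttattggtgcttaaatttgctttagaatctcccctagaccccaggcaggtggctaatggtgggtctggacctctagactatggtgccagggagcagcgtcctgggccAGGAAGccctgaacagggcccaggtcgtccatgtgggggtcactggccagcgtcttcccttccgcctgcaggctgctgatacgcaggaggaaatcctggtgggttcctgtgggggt
Clec4g promoter (chr8:3720652-3720901, GRCm38.p6, minus strand): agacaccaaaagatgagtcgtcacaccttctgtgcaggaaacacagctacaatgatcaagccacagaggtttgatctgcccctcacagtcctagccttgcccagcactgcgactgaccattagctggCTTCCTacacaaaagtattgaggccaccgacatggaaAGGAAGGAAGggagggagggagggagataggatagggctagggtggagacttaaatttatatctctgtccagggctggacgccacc
The letters AGGAAG occurred in 3 of the 6 promoters (Stab1, Stab2 and Clec4g) and in 29.5% of the 32851 promoters in the table. A site for factors of the GATA family, AGATAA, was searched on both strands as well and occurred in 0 of the 6, against 9.99% of all promoters. CACCC, the core of KLF sites, occurred on either strand in 4 of the 6 (Fcgr2b, Tek, Kdr and Clec4g), against 52% of all promoters. These are all the motifs that were searched. A match is not evidence of binding, and a missing match says only that these letters are not in the window.

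A wider list of 94 other genes of endothelium and its signals, in role groups, also held many small differences and a few wider ones. It includes ligands that other cells make, such as Vegfa of hepatocytes, so its counts and sums are not of endothelial transcripts alone. All 94 were listed, and 71 averaged 1 TPM or more. Of these 71, 51 lay below 0 and 20 above, with a median of -0.09 and a ratio of the summed TPM of 0.933. A fold of 1.2 was passed downward by 14 (19.7%, against 5.51% of all genes and 5.83% of genes with a mean of 1 to 60 TPM) and upward by 3 (against 5.39% and 5.71%). The counting interval lay below 0 for 21 (29.6%, against 11.7% of genes with a mean of 1 to 60 TPM). It held 0 for 46 and lay above 0 for 4 (5.63%, against 9.04%). These shares depend on depth, and 18.9% lay below 0 among genes at that level with at least 1000 estimated reads. The same background applies to the role groups that follow, with 53.8% of all genes below 0. The gene list was written with earlier results of these data known, and the share is a description of these libraries.

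**Figure D3:**
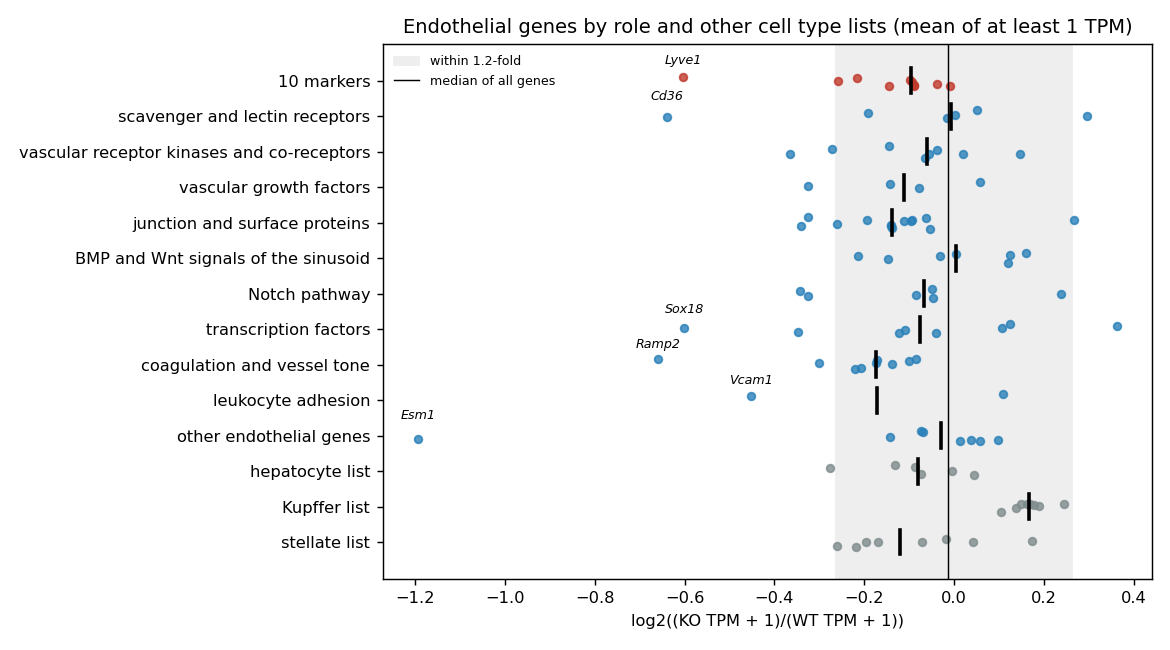
Change of each gene averaging 1 TPM or more (horizontal axis, log2((KO TPM + 1)/(WT TPM + 1))), for the 10 markers (red), further endothelial genes by role (blue) and lists of hepatocyte, Kupffer and stellate cell markers (grey). Thick bars are medians, the thin line is the median of all genes at -0.01, the grey band is within 1.2-fold, and genes beyond 0.4 in either direction are named. The endothelial genes past the band lie mostly to the left, and all 8 Kupffer cell genes lie to the right of 0.

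Among receptors and their ligands, Flt1, the VEGF receptor that acts largely as a decoy, measured 4.60 TPM in KO against 6.21 TPM in WT (change -0.36, interval -0.60 to -0.24). Tie1, the partner of TIE2, measured 6.31 TPM in KO against 7.82 TPM in WT, a change of -0.27 close to that of Tek. Nrp1, a co-receptor for VEGF and the most abundant gene of the group, was higher in KO, at 33.64 TPM against 30.27 TPM (change 0.15, interval 0.09 to 0.24). Of the ligands, Vegfb measured 7.95 TPM in KO against 10.22 TPM in WT (-0.33), and Vegfa, made by hepatocytes, was at 57.35 TPM and 55.04 TPM (0.06, interval -0.0029 to 0.15). The receptor group as a whole had 6 of 8 genes below 0 and a median of -0.06.

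Among junction and surface proteins, 12 of 13 genes lay below 0, against 53.8% of all genes, with a median of -0.14. Their counting intervals lay below 0 for only 2 (15.4%, against 11.7% of genes with a mean of 1 to 60 TPM) and held 0 for 11. Mcam (CD146) measured 3.36 TPM in KO against 4.52 TPM in WT (-0.34), and Emcn (endomucin) 3.20 TPM and 4.26 TPM (-0.32), but the interval of Emcn, from -0.92 to 0.07, holds 0. Eng (endoglin), the most abundant of them, had a change of -0.10 with an interval from -0.19 to 0.01. Cldn5, a tight junction protein, was the exception, at 4.10 TPM in KO against 3.24 TPM in WT (0.27), on 71 and 75 estimated reads, with an interval from -0.13 to 0.84.

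All 9 genes averaging 1 TPM or more of coagulation and vessel tone lay below 0, against 53.8% of all genes, with a median of -0.17. Their counting intervals lay below 0 for 6, against 11.7% of genes with a mean of 1 to 60 TPM. With at least 1000 estimated reads as well, a depth that only some of the 9 have, that share was 18.9%. Ramp2, the co-receptor for adrenomedullin, measured 7.49 TPM in KO against 12.41 TPM in WT (-0.66, interval -1.14 to -0.31), on 73 and 162 estimated reads. Adgrf5, an adhesion G protein-coupled receptor of endothelium, measured 11.57 TPM in KO against 14.49 TPM in WT (-0.30, interval -0.41 to -0.22). F8, coagulation factor VIII, which sinusoidal endothelium makes, measured 13.82 TPM in KO against 15.30 TPM in WT (-0.14). Thbd, thrombomodulin, had the change nearest to 0 of this group, -0.08.

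Of the scavenger and lectin receptors outside the 10 markers, 3 of 6 lay below 0 and 3 above. Cd36, a fatty acid and lipoprotein receptor that hepatocytes and macrophages also carry, measured 10.74 TPM in KO against 17.28 TPM in WT (-0.64, interval -0.84 to -0.53). Mrc1, the mannose receptor, measured 31.43 TPM in KO against 31.78 TPM in WT (-0.02), a change like those of the stabilins. Scarf1, a receptor for modified lipoproteins, was higher in KO, at 6.67 TPM against 5.25 TPM (0.30, interval 0.10 to 0.61).

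Among transcription factors, Sox18 measured 2.85 TPM in KO against 4.84 TPM in WT (-0.60, interval -1.24 to -0.31, on 57 and 131 estimated reads), and Erg, an ETS factor of endothelium, 2.46 TPM and 3.40 TPM (-0.35, interval -0.90 to -0.03). Klf2, which is induced by shear stress, measured 5.86 TPM in KO against 4.33 TPM in WT (0.36, interval 0.10 to 0.81). Maf, the most abundant of the group, had a change of -0.12. In the Notch pathway, the ligand Dll4 measured 2.57 TPM in KO against 3.53 TPM in WT (-0.34), and the target Hes1, which other cells express as well, 10.14 TPM and 12.95 TPM (-0.32), while the ligand Jag1 was at 3.65 TPM and 2.94 TPM (0.24, interval 0.08 to 0.56).

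Esm1, a proteoglycan core protein of activated and tip cell endothelium, had the lowest change of the list, with 1.43 TPM in KO against 4.56 TPM in WT (-1.19). Its interval ran from -2.23 to -1.17 for the ratio of means, on 38 and 165 estimated reads. Of the 3103 genes within a factor of 2 of its level, itself included, 0.0322% had a change as low or lower, which is Esm1 alone. Without Esm1 the list had a median of -0.09 and 13 of 70 genes past 1.2-fold downward. Vcam1, a leukocyte adhesion molecule of endothelium that Kupffer and stellate cells also carry, measured 11.03 TPM in KO against 15.45 TPM in WT (-0.45, interval -0.64 to -0.32), and Icam1 6.62 TPM and 6.07 TPM (0.11, interval -0.13 to 0.40). Aqp1, a water channel of the sinusoid and bile duct and the most abundant of its group, had a change of 0.01, and Plxnc1, the highest, one of 0.10. BMP and Wnt signals and receptors of the sinusoid had a median of 0.0040 over 7 genes, from -0.21 for Acvrl1 to 0.16 for Rspo3, with 0 past 1.2-fold, and all 7 intervals hold 0. Acvrl1 measured 0.95 TPM in KO against 1.26 TPM in WT, 24.6% lower without the pseudocount, which shrinks changes at such low levels. The highest level of these 7 genes was that of Gdf2 (BMP9), at 10.87 TPM in KO against 12.15 TPM in WT.

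**Figure D4:**
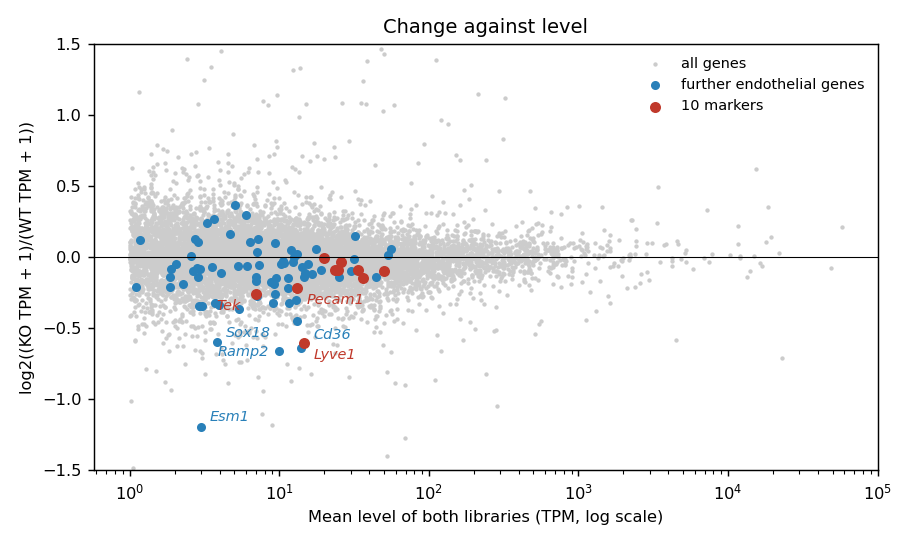
Change (vertical axis, log2((KO TPM + 1)/(WT TPM + 1))) against the mean level of both libraries (horizontal axis, TPM, log scale) for genes averaging 1 TPM or more, with the 10 markers in red and further endothelial genes in blue. The vertical axis ends at 1.5 in both directions and leaves out 26 genes. Lyve1, Cd36, Ramp2, Sox18 and Esm1 lie lowest among the endothelial genes, from -0.60 to -1.19, and the other 9 markers lie between -0.26 and -0.0082.

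Markers of other liver cells did not all lie on the same side of 0 as the endothelial genes. Each of the 8 Kupffer cell genes was above 0, while 53.8% of all genes lay below 0. Their median was 0.17, from 0.10 for Vsig4 to 0.24 for C1qa, with 0 past 1.2-fold, against 5.39% of all genes upward and 5.51% downward. The counting interval lay above 0 for 5 of these 8 genes and held 0 for 3. Of all genes averaging 1 TPM or more and listed in both tables, 11.7% had an interval above 0. The levels of the 8 Kupffer cell genes summed to 293.0 TPM in KO against 257.1 TPM in WT. The lowest of these 8 was Timd4, at 4.35 TPM in KO against 3.86 TPM in WT. Blood-derived cells or macrophages can also express Stab1, Lyve1, Fcgr2b and Pecam1. Without those 4 markers, the other 6 markers had a median of -0.09 and a ratio of the summed TPM of 0.936. The 8 stellate cell genes had a median of -0.12, with 6 below 0, against 53.8% of all genes. Of these 8 genes, 0 were past 1.2-fold (5.51% of all genes downward, 5.39% upward). They ran from -0.26 for Des to 0.17 for Lrat, with a summed level of 264.8 TPM in KO against 289.2 TPM in WT. Hepatocyte genes had a median of -0.08 over 6 genes, from -0.28 for Tat to 0.05 for Hpd, with a ratio of the summed TPM of 0.955. Cholangiocyte genes had a median of -0.12 over 4 genes, with Epcam lowest at -0.59 on 17 and 53 estimated reads and Krt19 highest at 0.0070. Red cell genes ran from -0.89 for Hbb-bs to 0.19 for Hba-a1, with a summed level of 1412 TPM in KO against 1429 TPM in WT. With the authors' means, Hbb-bs was at -0.85 and Hba-a1 at 0.14. The measures differed more for Hbb-bt (-0.27 by TPM, 0.04 by the means) and Hba-a2 (-0.14 and -0.0084). Of 5 lymphocyte genes only Ptprc reached a mean of 1 TPM, at 5.06 TPM in KO against 5.07 TPM in WT. The part of these other cell types in the endothelial differences was not tested.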

How the data were processed

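Total RNA of snap-frozen liver was pooled by genotype, and 1 library per genotype was sequenced in paired reads of 100 bases. Per the labels and the study's methods, the authors used CASAVA 1.8.2 and RSEM 1.2.09 with Bowtie on mm10. The deposited TPM values are posterior means per gene and keep no depth. A second deposited table, from EBSeq, gives for 16318 genes a signal per library, which is the read estimate over a size factor. It was divided here by what 1 read is worth (1.16 in KO, 0.860 in WT) to give estimated reads. Within 0.02, 78.4% of KO and 75.0% of WT values were whole reads. With 1 library per genotype no test was run. The columns of that table that compare genotypes (posterior probabilities and fold changes) were not used. Its mean columns do not name a genotype and were assigned from the headings of the study's supplementary table of the same values.

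Changes are log2((KO TPM + 1)/(WT TPM + 1)), and genes averaging 1 TPM or more were summarised by counts and medians beside all such genes. The ratio of means has a Clopper-Pearson interval and levels have exact Poisson intervals, both at 95%. The members and lists were chosen with earlier results of these data known. Named are all 10 markers, further endothelial genes past 1.2-fold, the highest, lowest and most abundant gene of each role group, and the highest and lowest gene of other cell type lists. Older symbols were matched through RefSeq synonyms. Coordinates are from GENCODE M21 (GRCm38, the assembly of mm10), and windows of 100 bases were compared among its transcripts on the sense strand. Alternatives were a pseudocount of 0.1 TPM, the authors' means, centring, rescaling without the 50 most abundant genes (2 versions), other filters and thresholds, and fewer markers. The software was scipy 1.17.1, pandas 2.3.3, numpy 2.4.6, matplotlib 3.10.9 and Python 3.11.15.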

Additional observations from a re-analysis of the deposited data

How the results depend on the processing

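No paired analysis was possible because only 1 pool per genotype was sequenced, which also leaves no replicate to drop. The median change of the markers ran from -0.10 to -0.08 over the settings tried, and that of the further endothelial genes from -0.11 to -0.07, the latter with a minimum of 10 TPM. No error of these medians was computed. The 50 alternative values of single markers each moved by less than the distance from the middle of that marker's counting interval to its end. Stab1 changed sign, to 0.0016 with the authors' means and 0.0050 after centring. The count of markers past 1.2-fold downward went from 1 to 2 with a pseudocount of 0.1 TPM, to 2 with the authors' means and to 2 with TPM rescaled to the usual TPM total without the 50 most abundant genes, each time by Tek. That rescaling raises every level and so lowers the weight of the pseudocount. A version rescaled to the average of both sums, which keeps that weight, was added after the count of 2 had been seen and gave 1. The count was 1 for 1.4-fold in both directions, added after seeing the data, 0 with thresholds of 1.4 and 0.6, 0 without the 4 markers that blood cells also express, and 0 without Lyve1, an alternative added after seeing the data. The ratio of summed levels went from 0.910 to 0.939 with the authors' means, which weigh long genes more, to 0.936 without those 4 markers and to 0.930 without Lyve1. Depth limits genes under about 200 estimated reads, such as Emcn or Cldn5, and pooling limits all genes.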

Other observations

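Lists of endothelium by position in the lobule, of lymphatic endothelium and of hyaluronan turnover were written after the values of the markers had been seen. Efnb2, Dll4 and Msr1 (periportal) and Wnt2, Wnt9b, Rspo3 and Thbd (pericentral) were already in the wider list of 94 genes. The lists by position are therefore not a separate set of observations. Genes of periportal sinusoids and portal veins had 4 of 5 values below 0, against 53.8% of all genes, and a median of -0.23, against -0.01. Ntn4, netrin-4, measured 4.27 TPM in KO against 6.71 TPM in WT, a change of -0.55 with a counting interval from -0.95 to -0.34. Ltbp4, which binds latent TGF-beta, measured 17.00 TPM in KO against 20.12 TPM in WT, a change of -0.23 with an interval from -0.34 to -0.13. Msr1, which macrophages also express, was the value above 0, at 0.05. Genes of pericentral sinusoids and central veins had a median of -0.02 over 5 genes, from -0.24 for Cdh13 to 0.16 for Rspo3, and all 5 intervals hold 0. The difference between these lists was not tested.

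Of 5 genes of hyaluronan turnover averaging 1 TPM or more, 4 lay above 0 and 1, Tmem2, below, while 53.8% of all genes lay below 0. Of these 5, 0 passed 1.2-fold in either direction (5.51% of all genes downward, 5.39% upward), and 3 counting intervals held 0. The hyaluronidases Hyal1 and Hyal2 had changes of 0.04 and 0.06, with intervals that hold 0, and the hyaluronan receptor Cd44 measured 5.88 TPM in KO against 4.99 TPM in WT (0.20, interval 0.03 to 0.45). Tmem2, a cell surface hyaluronidase, measured 11.13 TPM in KO against 12.80 TPM in WT (-0.19, interval -0.31 to -0.08). Of 5 lymphatic markers, 2 averaged 1 TPM or more. Itga9, an integrin chain of lymphatic valves that other cells also express, measured 9.93 TPM in KO against 10.52 TPM in WT (-0.08, interval -0.19 to 0.05). Pdpn measured 0.17 TPM in KO against 0.19 TPM in WT, and Ccl21a, on 4 and 18 estimated reads, at 0.29 TPM and 0.74 TPM. Prox1, which hepatocytes also express, measured 34.15 TPM in KO against 27.37 TPM in WT (0.31, interval 0.24 to 0.42).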
